A study of Mus musculus with 8 samples.

Results

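The 9 genes described here encode members of the insulin-like growth factor (IGF) and hepatocyte growth factor (HGF) signalling systems: the ligands Igf1 and Hgf, the receptors Igf1r, Igf2r and Met, and the IGF-binding proteins Igfbp3, Igfbp4, Igfbp5 and Igfbp7. They were chosen by symbol from the 32285 genes of the deposited matrices, and all 9 were present in each of the 8 libraries. The study concerns the exchange between lymphatic vessels and intestinal stem cells in C57BL/6 mice. It holds 1 single-cell library of control small intestinal organoids at passage 1 and 1 of organoids grown in coculture, for which the labels do not name the partner. Wells were pooled within each condition, and epithelial cells were sorted before capture. It further holds 1 single-cell library of digested small intestine and 1 of large intestine, both sorted for live cells with enrichment of LGR5+ stem cells and of CD31+ PDPN+ LYVE1+ lymphatic endothelial cells. C57BL/6 mice and Lgr5-eGFP-ires-CreERT2 mice, a reporter line driven from the Lgr5 locus on the same background, supplied the sorted cells. Visium spatial libraries were made from 2 sections of small and 2 of large intestine, which the labels call technical duplicates. The labels give neither age nor sex of the animals.

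After filtering, 538 of 818 control and 1028 of 1233 cocultured organoid cells remained, with medians of 73663.5 and 86295 unique molecular identifiers (UMIs) per cell. Of the tissue cells, 2695 of 8842 remained in the small intestine and 5882 of 8646 in the large intestine, with medians of 11810 and 21761 UMIs. The low yield in the small intestine came mostly from the mitochondrial limit, which 5497 barcodes exceeded, against 2060 in the large intestine. The tissue libraries shared 25 barcodes and the organoid libraries 0. Visium sections kept 2094 to 2571 spots with median depths of 9039 to 19822 UMIs. Cells were clustered without the 9 genes and were given a class name from marker lists. Lymphatic endothelial-like cells, 349 in the small and 205 in the large intestine, carried all 7 of their 7 markers in both libraries, at a summed 17523 and 23571 counts per 1000000 UMIs (CPM). They also carried blood endothelial markers at 5355 and 2830 CPM, and fibroblast markers at 49.3 and 54.9 CPM. In small intestine, the smooth muscle or pericyte-like class (57 cells) had fibroblast markers at 22064 CPM beside smooth muscle markers at 17972 CPM, and is therefore mixed. The large intestinal counterpart (114 cells) had smooth muscle markers at 33110 CPM and fibroblast markers at 8323 CPM. The part of these other markers in the values below was not tested. There was 1 library per tissue and per organoid condition, so a difference between tissues or conditions cannot be told apart from a difference between libraries, and no test across animals was possible. Intervals below are exact 95% intervals and cover counting error only.

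IGF1 is a secreted growth factor made by the liver and, within tissues, mainly by mesenchymal cells, and it acts through the receptor tyrosine kinase IGF1R. IGF2R, the cation-independent mannose 6-phosphate receptor, carries lysosomal enzymes and takes IGF2 up for degradation, and secreted IGF-binding proteins hold IGFs in the extracellular space and govern their access to the receptor. HGF is likewise secreted by mesenchymal cells, as an inactive precursor, and its receptor MET sits on epithelial and other cells. In the intestine both systems are known as routes by which stroma acts on the growth and repair of the epithelium.

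The regions just before the RefSeq start sites of the ligands and their signalling receptors are shown because the pairs differ in base composition. RefSeq promoter windows (assembly GRCm38.p6) were matched for all 9 genes. Each sequence below is the 250 bases before a RefSeq start on the gene's own strand, the plus strand for all 4 genes. CG dinucleotides are in capitals. The positions are chr10:87860861-87861110 for Igf1, chr5:16553245-16553494 for Hgf, chr7:67952007-67952256 for Igf1r and chr6:17463707-17463956 for Met. The Hgf and Igf1r windows directly precede the listed gene. The Igf1 and Met windows precede a start inside the listed gene, which begins at chr10:87858265 for Igf1 and chr6:17463349 for Met.
Igf1: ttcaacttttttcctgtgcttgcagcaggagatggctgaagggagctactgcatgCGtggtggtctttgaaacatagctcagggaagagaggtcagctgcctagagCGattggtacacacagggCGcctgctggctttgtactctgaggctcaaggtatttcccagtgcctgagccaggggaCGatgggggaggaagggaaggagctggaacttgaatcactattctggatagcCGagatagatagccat
Hgf: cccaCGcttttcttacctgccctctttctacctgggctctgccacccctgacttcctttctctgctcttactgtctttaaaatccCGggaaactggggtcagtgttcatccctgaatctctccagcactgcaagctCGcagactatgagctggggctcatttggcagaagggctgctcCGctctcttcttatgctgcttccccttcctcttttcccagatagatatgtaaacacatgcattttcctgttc
Igf1r: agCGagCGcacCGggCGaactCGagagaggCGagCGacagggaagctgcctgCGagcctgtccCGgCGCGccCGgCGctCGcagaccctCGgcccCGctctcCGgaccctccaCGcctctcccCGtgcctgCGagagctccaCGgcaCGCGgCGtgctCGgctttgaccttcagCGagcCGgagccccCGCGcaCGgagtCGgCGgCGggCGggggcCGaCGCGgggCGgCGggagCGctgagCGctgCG
Met: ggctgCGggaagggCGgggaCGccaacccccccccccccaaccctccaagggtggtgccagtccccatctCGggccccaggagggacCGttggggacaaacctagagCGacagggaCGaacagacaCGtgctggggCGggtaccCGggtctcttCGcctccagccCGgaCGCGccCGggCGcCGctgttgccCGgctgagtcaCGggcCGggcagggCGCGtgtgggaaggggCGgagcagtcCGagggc
The windows of the ligands held 5 CG dinucleotides in Igf1 and 4 in Hgf, at 52.8% and 50.8% G+C, and a second RefSeq window of Hgf held 5 at 51.2%. Those of the receptors held 42 in Igf1r and 24 in Met, at 77.6% and 74.0% G+C. Over 32851 RefSeq windows of this length the medians were 6 CG dinucleotides and 52.4% G+C, so the ligands lay near the middle and the receptors well above it. Igf2r (27), Igfbp3 (32), Igfbp7 (26) and Igfbp4 (22) were also CG-rich, and Igfbp5 had 10. GGGCGG, the GC box letters searched on both strands, occurred 2 times in the Igf1r window, 3 times in the Met window and in neither ligand window, against 32.7% of all windows. TATAAA on either strand, present in 12.4% of all windows, occurred in none of these 4 windows and, among the other 5 members, 1 time in that of Igfbp4. These matches describe letters and mark no bound site.

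Igf1 was a mesenchymal transcript in both tissues. In the small intestine its level was 207 CPM (88 UMIs, 166 to 255) in smooth muscle or pericyte-like cells and 204 CPM (49 UMIs, 151 to 270) in fibroblast-like cells. These neighbours in the order did not differ beyond counting error, at a log2 ratio of 0.02 (-0.50 to 0.56). Macrophage or monocyte-like cells came next at 39.6 CPM (44 UMIs, 28.8 to 53.1), and the fibroblast-like level exceeded theirs by 2.37 on the log2 scale (1.75 to 2.99). Large intestinal smooth muscle or pericyte-like cells had 507 CPM (368 UMIs, 456 to 561) and fibroblast-like cells 287 CPM (794 UMIs, 267 to 307), a log2 ratio of 0.82 (0.64 to 1.00). Blood endothelial-like cells at 40.2 CPM (16 UMIs) and macrophage or monocyte-like cells at 40.0 CPM (64 UMIs) followed. Lymphatic endothelial-like cells held little, with 2 UMIs (1.6 CPM) in the small and 6 UMIs (10.6 CPM) in the large intestine.

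Within these classes Igf1 was uneven. All 368 UMIs of the large intestinal smooth muscle or pericyte-like class lay in 1 cluster, at 576 CPM, whereas the other cluster of that class, 19 cells led by the pericyte gene Rgs5, held 0. Among the 3 large intestinal fibroblast-like clusters, the one led by Dcn, C3 and Dpt had 455 CPM (650 UMIs), while that led by Mgp, Adamdec1 and Eln had 114 CPM (98 UMIs) and that led by Adamdec1, Tnc and Ogn had 95.6 CPM (46 UMIs). At a common depth of 2000 UMIs per cell, Igf1 was detected in 43.0% of 107 large intestinal smooth muscle or pericyte-like cells (33.5 to 52.9%) and in 34.5% of 345 fibroblast-like cells (29.5 to 39.8%). At full depth, medians of 5883 and 7524 UMIs, 69.3% and 60.1% of these cells had it. B-like cells, which should lack the transcript, had it in 0 of 107 cells, an upper limit of 3.39%, at a median depth of 2644 UMIs. In the small intestine the thinned shares were 26.8% of 56 smooth muscle or pericyte-like cells and 25.0% of 32 fibroblast-like cells, and 52.6% and 60.6% without thinning, against 0 of 273 B-like cells, an upper limit of 1.34%.

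Hgf was sparse, with 36 UMIs in all small intestinal cells and 294 in all large intestinal cells. Its small intestinal level was 30.6 CPM (13 UMIs) in smooth muscle or pericyte-like cells and, next in order, 8.1 CPM (9 UMIs) in macrophage or monocyte-like cells, 1.92 lower on the log2 scale (0.58 to 3.33). Large intestinal fibroblast-like cells led at 48.0 CPM (133 UMIs, 40.2 to 56.9), ahead of smooth muscle or pericyte-like cells at 17.9 CPM (13 UMIs) by 1.42 (0.60 to 2.37). Among the 3 large intestinal fibroblast-like clusters, the one that came first for Igf1 came last for Hgf. Hgf reached 96.6 CPM (83 UMIs) in the Mgp-led cluster and 74.8 CPM (36 UMIs) in the Tnc and Ogn cluster, but 9.8 CPM (14 UMIs) in the Dcn, C3 and Dpt cluster. The ligands therefore had their highest fibroblast-like levels in different clusters. At 2000 UMIs per cell, Hgf was detected in 10.1% of 345 large intestinal fibroblast-like cells (7.17 to 13.8%), and in 22.4% without thinning. Lymphatic endothelial-like cells held 2 Hgf UMIs in the small and 4 in the large intestine.

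Igf1r, the signalling receptor for IGF1, was widespread, with its highest levels in mesenchymal cells, while mature absorptive cells and B-like cells had little or none. In the small intestine fibroblast-like cells had 187 CPM (45 UMIs), smooth muscle or pericyte-like cells 174 CPM (74 UMIs) and blood endothelial-like cells 165 CPM (24 UMIs, 106 to 246), and neighbours in this order did not differ beyond counting error. Lymphatic endothelial-like cells at 97.0 CPM (120 UMIs, 80.4 to 116) lay below blood endothelial-like cells by a log2 ratio of 0.77 (0.07 to 1.41). They stood beside stem-like cells at 85.5 CPM (273 UMIs, 75.7 to 96.3), with a log2 ratio of 0.18 (-0.14 to 0.50). The epithelial order ran from stem-like over enteroendocrine-like cells (50.0 CPM) and cycling cells (37.0 CPM) to Paneth-like (6.43 CPM) and enterocyte-like cells (5.33 CPM, 43 UMIs). The large intestinal order began with smooth muscle or pericyte-like cells at 157 CPM (114 UMIs, 129 to 189), above fibroblast-like cells at 111 CPM (307 UMIs) by 0.50 (0.18 to 0.82). Enteroendocrine-like (50.3 CPM), blood endothelial-like (45.3 CPM), lymphatic endothelial-like (44.2 CPM, 28.6 to 65.3) and stem-like cells (40.6 CPM, 37.7 to 43.6) formed a group below them with overlapping intervals. Colonocyte-like cells were at 10.1 CPM (115 UMIs), and B-like cells held 0 UMIs in both libraries.

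Igf2r was present in most classes, and no class stood apart at the top of its order. Small intestinal enteroendocrine-like cells had 118 CPM (52 UMIs, 88.3 to 155), T, NK or innate lymphoid-like cells 97.4 CPM (23 UMIs) and lymphatic endothelial-like cells 94.5 CPM (117 UMIs, 78.2 to 113). Goblet-like cells at 54.4 CPM (285 UMIs) lay below lymphatic endothelial-like cells by a log2 ratio of 0.80 (0.47 to 1.11), and Paneth-like cells were at 15.3 CPM. Macrophage or monocyte-like cells (9.90 and 8.12 CPM in the small and large intestine) and B-like cells (4.89 and 2.76 CPM) were at the bottom in both libraries. Lymphatic endothelial-like cells of the large intestine were at the top of the order with 81.4 CPM (46 UMIs), next to enteroendocrine-like (69.7 CPM), blood endothelial-like (65.4 CPM) and fibroblast-like cells (58.5 CPM). Colonocyte-like cells had 17.1 CPM.

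Met, the HGF receptor, was found mainly in epithelial-like cells of the small intestine. Stem-like cells had 27.3 CPM (87 UMIs, 21.8 to 33.6) and cycling cells 23.3 CPM (258 UMIs), a log2 ratio of 0.23 (-0.14 to 0.59) that did not exceed counting error. Cycling cells lay above goblet-like cells at 17.4 CPM by 0.42 (0.07 to 0.78), enterocyte-like cells had 14.9 CPM (120 UMIs) and Paneth-like cells 4.33 CPM (37 UMIs). Outside the epithelium, fibroblast-like cells held 4 Met UMIs (16.7 CPM, 4.54 to 42.6), macrophage or monocyte-like cells 8 (7.20 CPM), lymphatic endothelial-like cells 3 and blood endothelial-like cells 0. The large intestinal order was headed by smooth muscle or pericyte-like cells at 64.7 CPM (47 UMIs, 47.6 to 86.1), above colonocyte-like cells at 20.6 CPM (235 UMIs) by 1.65 (1.17 to 2.11). All 47 of these UMIs lay in the same cluster that held the Igf1 UMIs of that class. Stem-like, goblet-like and cycling cells of the large intestine were at 19.7, 16.4 and 16.2 CPM.

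Igfbp3, the main carrier of IGFs in serum, was shared by endothelial and mesenchymal cells. Small intestinal smooth muscle or pericyte-like cells had 622 CPM (264 UMIs, 549 to 702), blood endothelial-like cells 399 CPM (58 UMIs) and lymphatic endothelial-like cells 221 CPM (273 UMIs, 195 to 248). The first exceeded the second by a log2 ratio of 0.64 (0.22 to 1.08). Blood endothelial-like cells led in the large intestine with 563 CPM (224 UMIs), above fibroblast-like cells at 428 CPM (1186 UMIs) by 0.40 (0.18 to 0.60), and lymphatic endothelial-like cells had 246 CPM (139 UMIs). Large intestinal smooth muscle or pericyte-like cells held 1 UMI, against 264 in the small intestine, a log2 ratio of 7.23 (6.33 to 14.13) with that count set to 3. The small intestinal class is the mixed one described above. The large intestinal fibroblast-like clusters followed the order of Hgf rather than that of Igf1: 1009 CPM (867 UMIs) in the Mgp-led cluster, 580 CPM (279 UMIs) in the Tnc and Ogn cluster, and 28.0 CPM (40 UMIs) in the Dcn, C3 and Dpt cluster.

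Igfbp4, a binding protein cleaved by the protease PAPP-A, had its highest small intestinal level in the lymphatic endothelial-like class, at 746 CPM (923 UMIs, 698 to 795). Fibroblast-like cells followed at 566 CPM (136 UMIs, of which 33.8% lay in 1 cell), lower by a log2 ratio of 0.40 (0.14 to 0.67), and then blood endothelial-like cells at 447 CPM (65 UMIs) and smooth muscle or pericyte-like cells at 426 CPM (181 UMIs). Stem-like cells had the highest epithelial level, 108 CPM (345 UMIs, 97.0 to 120), against 29.0 CPM (322 UMIs) in cycling cells. Fibroblast-like cells led in the large intestine at 895 CPM (2479 UMIs), above blood endothelial-like cells at 385 CPM (153 UMIs) by 1.22 (0.98 to 1.46), and lymphatic endothelial-like cells had 377 CPM (213 UMIs, 328 to 431). Large intestinal smooth muscle or pericyte-like cells were at 30.3 CPM (22 UMIs) and stem-like cells at 12.0 CPM (223 UMIs).

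Igfbp5, a binding protein that also attaches to extracellular matrix, was above 5 CPM in 3 of the named small intestinal classes. These were smooth muscle or pericyte-like cells with 426 CPM (181 UMIs), fibroblast-like cells with 358 CPM (86 UMIs, of which 52.3% lay in 1 cell) and lymphatic endothelial-like cells with 433 UMIs (318 to 384 CPM). The lymphatic endothelial-like class of the large intestine stood far above all other classes with 2499 CPM (1412 UMIs), exceeding fibroblast-like cells at 487 CPM (1350 UMIs) by a log2 ratio of 2.36 (2.25 to 2.47). Smooth muscle or pericyte-like cells followed at 300.2 CPM (218 UMIs), and blood endothelial-like cells had 20.1 CPM (8 UMIs).

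Igfbp7, a low-affinity binding protein known from vessel walls, was a blood endothelial and mesenchymal transcript. Small intestinal blood endothelial-like cells had 4322 CPM (628 UMIs), smooth muscle or pericyte-like cells 3008 CPM (1277 UMIs) and fibroblast-like cells 2911 CPM (699 UMIs). Those of the large intestine had 3910 UMIs and exceeded fibroblast-like cells at 2893 CPM (8014 UMIs) by a log2 ratio of 1.76 (1.71 to 1.82). Lymphatic endothelial-like cells were low in both libraries, with 138 UMIs in the small and 184 CPM (104 UMIs) in the large intestine. Igfbp5 and Igfbp7 thus had opposite orders between the lymphatic and blood endothelial-like classes of the large intestine.

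**Figure D1:**
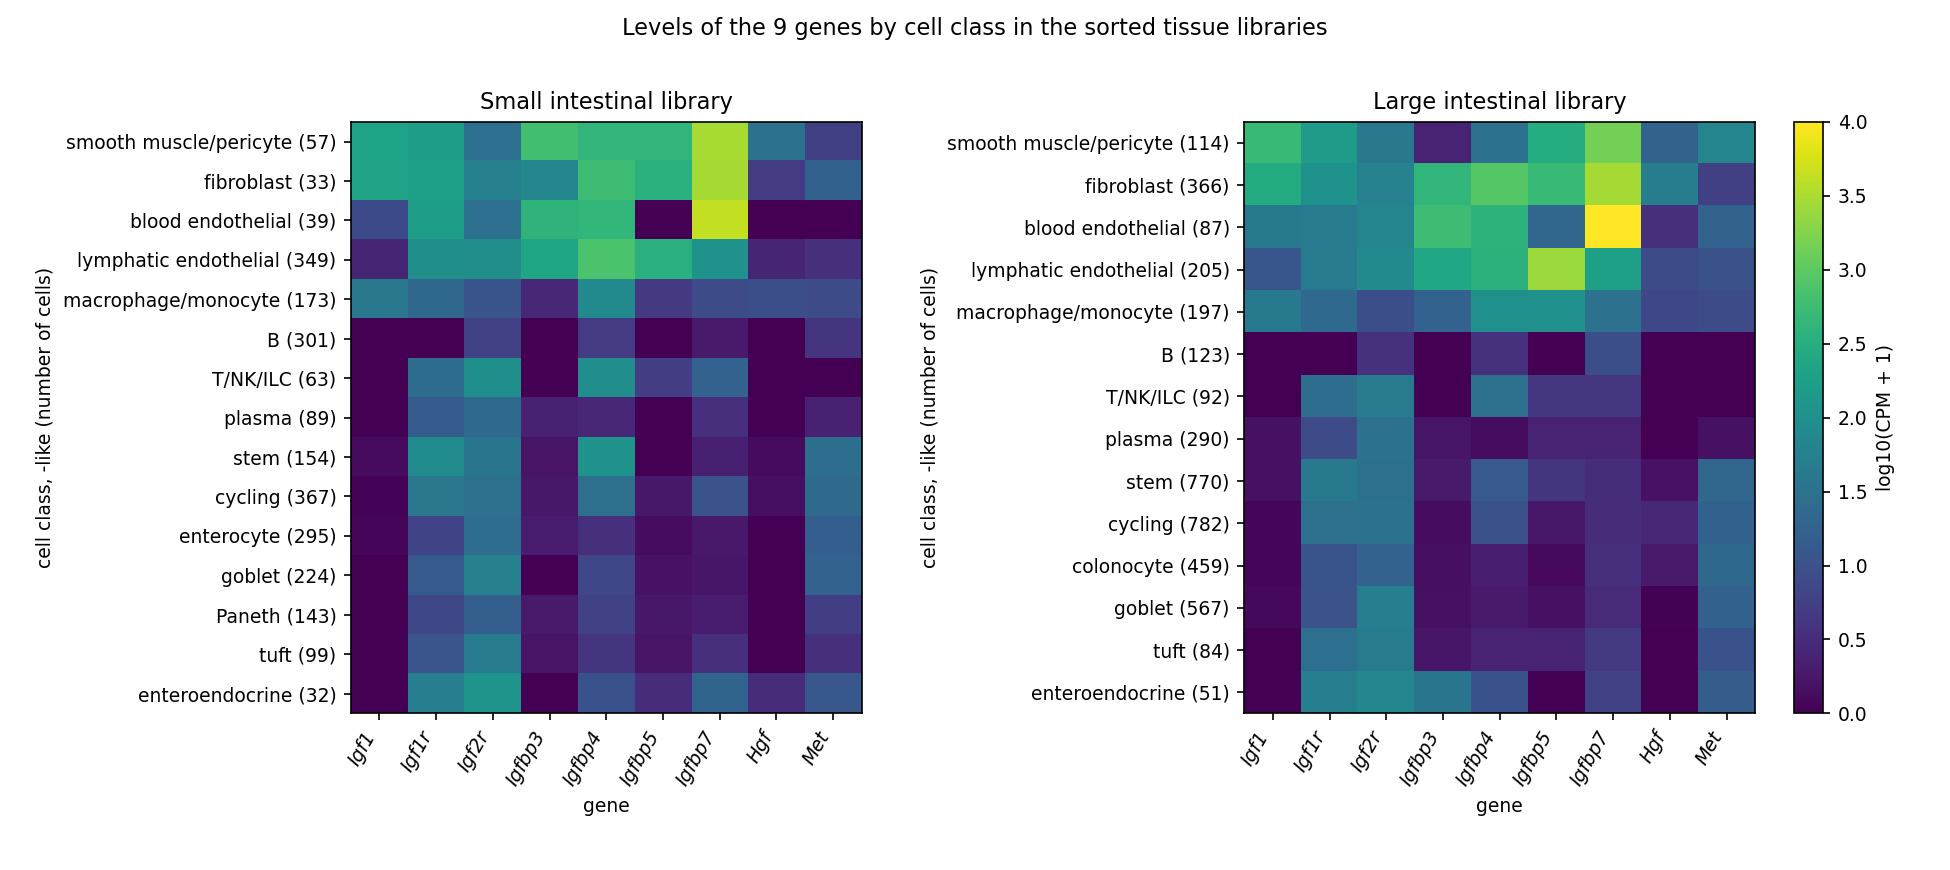
Levels of the 9 genes in each marker-named cell class of the small (left) and large (right) intestinal tissue library; colour gives log10(CPM + 1) of summed UMIs from dark (low) to yellow (high), with classes and their cell numbers down the side and genes along the bottom. Igf1 and Igfbp7 are brightest in mesenchymal-like or blood endothelial-like classes, the single brightest binding protein of the lymphatic endothelial-like class is Igfbp5 in the large intestine, and Met is spread over epithelial-like classes, with its highest large intestinal level in smooth muscle or pericyte-like cells.

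Among members with at least 100 UMIs in a tissue library, the highest class lay at least 2-fold above the next for 0 of 8 in the small intestine, against 18.8% of all genes tested in the same way. The same held for 5 of 9 in the large intestine, namely Igfbp4, Igfbp5, Igfbp7, Hgf and Met, against 18.7% of all genes. Over the 13 classes present in both libraries, 2 of 8 members, Igf1 and Igfbp7, had the same highest class in both, against 49.0% of all genes. With called doublets kept the count was 5 in place of 2, and the share over all genes was not computed for that setting.

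Lymphatic endothelial-like cells were compared between the tissue libraries because the study sorted for them. Of the 6 members with enough UMIs, 2 lay past 2-fold, Igf1r higher and Igfbp5 lower in the small intestine, against 8.94% of 2371 genes (6.66% higher and 2.28% lower). Igfbp5 was lower in the small intestine by a log2 ratio of -2.84 (-3.0 to -2.68). Igf1r was higher there by 1.13 (0.50 to 1.82), and Igfbp4 was higher by 0.98 (0.77 to 1.21). Igfbp7 had a log2 ratio of -0.72 (-1.10 to -0.34). The ratios of Igf2r, 0.22 (-0.29 to 0.74), and Igfbp3, -0.16 (-0.46 to 0.15), did not exceed counting error. The median over all genes was 0.05. Igf1, Hgf and Met were at or near the floor in these cells, with 2, 2 and 3 UMIs in the small and 6, 4 and 5 in the large intestine.

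The lymphatic endothelial-like differences in Igfbp4 and Igfbp5 appeared in the shares of cells as well. At 2000 UMIs per cell, Igfbp5 was detected in 24.8% of 258 small intestinal cells (19.7 to 30.5%) and in 69.6% of 115 large intestinal cells (60.3 to 77.8%). Full depth, medians of 3370 and 2292 UMIs, gave 29.2% and 74.6%. Igfbp4 showed the opposite order, with 74.0% (68.2 to 79.3%) in the small and 43.5% (34.3 to 53.0%) in the large intestine, or 77.7% and 44.9% without thinning. B-like cells had Igfbp4 in 0.366% and 0.935% of thinned cells, at median depths of 2802 and 2644 UMIs. Igfbp5 was concentrated in part of the large intestinal cells: 1 cell held 16.3% of its UMIs and 17 of 205 cells held 50% of them. Keeping called doublets changed the Igfbp5 log2 ratio to -2.21 and that of Igfbp4 to 1.62.

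**Figure D2:**
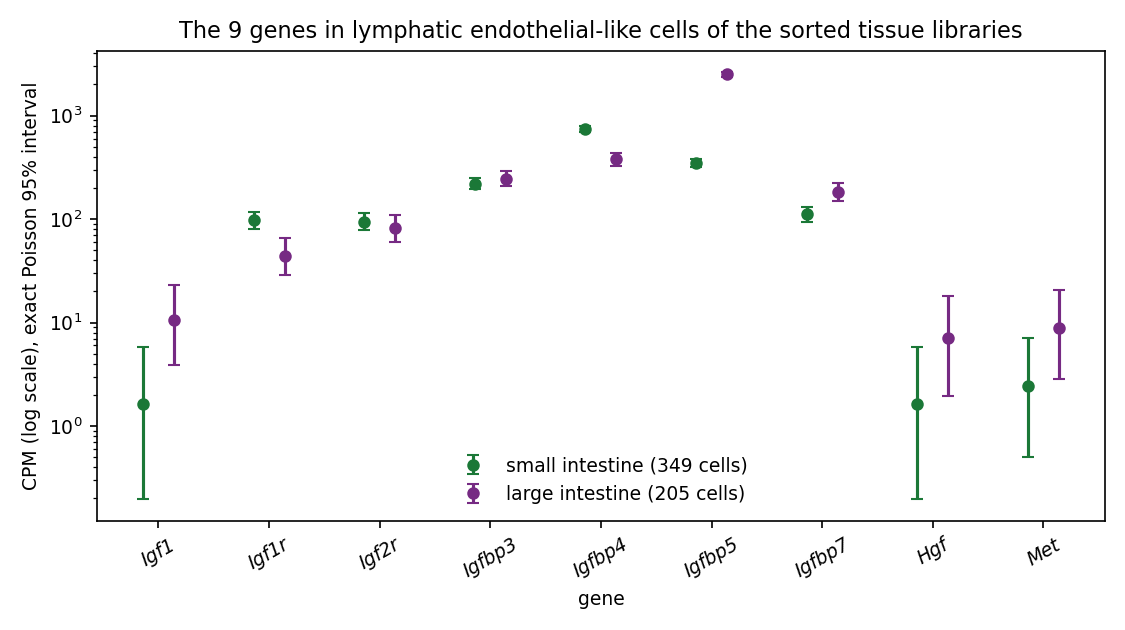
Levels of the 9 genes in the lymphatic endothelial-like class of each tissue library; the y axis is CPM on a log scale and bars are exact 95% intervals of counting error. Igfbp5 is higher in the large intestine, Igf1r and Igfbp4 are higher in the small intestine, and the intervals of Igf2r and Igfbp3 overlap.

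Stem-like cells, 154 in the small and 770 in the large intestine, carried all 3 receptors and Igfbp4, beside 1 and 10 UMIs of Igf1 and 1 and 11 UMIs of Hgf. Between the libraries Igfbp4 was higher in small intestinal stem-like cells by a log2 ratio of 3.17 (2.92 to 3.42) and Igf1r by 1.08 (0.87 to 1.28). Met was higher there by 0.47 (0.11 to 0.81), and Igf2r had a ratio of 0.28 (-0.03 to 0.57) that did not exceed counting error. The median over 9314 genes was 0.06, and 11.7% of these genes lay past 2-fold. In cycling cells Igfbp4 was higher in the small intestine by 1.72 (1.48 to 1.96). The large intestinal stem-like class joined 2 clusters that differed in Igfbp4, with 19.4 CPM in the cluster led by Hbb-bs and Reg3b and 4.12 CPM in that led by Cps1 and Ces1d, and both lay below the small intestinal 108 CPM.

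Stem-like cells were also divided by whether 1 UMI of Lgr5, the stem cell marker used for sorting, remained at 2000 UMIs per cell. In the large intestine Igfbp4 was detected in 8.82% of 68 cells with Lgr5 (3.31 to 18.2%) and in 2.04% of 685 without (1.12 to 3.41%), intervals that overlapped narrowly. Igf1r was detected in 14.7% (7.28 to 25.4%) and 8.03% (6.11 to 10.3%) of the same cells. Igf2r had the opposite order, at 1.47% (0.04 to 7.92%) and 5.99% (4.33 to 8.03%), and Met was at 4.41% and 4.38%. In the small intestine the shares were close, with Igfbp4 in 21.4% of 42 and 18.7% of 107 cells and Igf1r in 14.3% and 13.1%. The stem-like classes thus differed in makeup, with 42 cells with Lgr5 beside 107 without in the small intestine and 68 beside 685 in the large. The part of this in the ratios between the libraries was not tested. Igf1r was found in 0 of 273 and 0 of 107 B-like cells at that depth.

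In the organoids the 4 members with substantial epithelial levels were each lower in coculture, none of them by 2-fold. Igf1r had 372 UMIs in the control and 554 in the coculture library, levels of 8.60 and 5.71 CPM and a log2 ratio of -0.59 (-0.78 to -0.40). Igf2r was at 34.6 and 26.8 CPM, a ratio of -0.37 (-0.46 to -0.28). Igfbp4 was at 19.1 and 10.8 CPM (828 and 1048 UMIs), a ratio of -0.82 (-0.96 to -0.69), and Met at 19.5 and 10.4 CPM (846 and 1005 UMIs), a ratio of -0.92 (-1.05 to -0.78). The median over 11189 genes was -0.09. When each cell counted equally, the ratios were -0.30 for Igf1r, -0.22 for Igf2r, -0.53 for Igfbp4 and -0.69 for Met. Of 5 members with enough UMIs, 1, Igfbp3, lay past 2-fold, against 3.62% of genes (2.45% lower in coculture).

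Detection at 10000 UMIs per cell followed the levels for Igfbp4 and Met. Of 450 control cells 14.4% had Igfbp4 (11.3 to 18.0%), and of 919 cocultured cells 6.64% (5.11 to 8.45%), while Met was found in 19.1% (15.6 to 23.1%) and 10.2% (8.34 to 12.4%). Unthinned shares were 32.0% and 25.9% for Igfbp4 and 57.1% and 49.7% for Met. For Igf1r the thinned shares were 6.44% and 5.88%, close to each other, and for Igf2r 28.7% and 24.7%. At that depth 0 of 42 enterocyte-like cells of the control and 0 of 162 of the coculture had Igfbp4.

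The makeup of the organoids differed too, with regenerative-like cells making up 15.4% in control and 2.92% in coculture and stem-like cells 16.0% and 10.4%, so ratios within a class are given. In stem-like cells Igfbp4 was at 37.4 and 23.3 CPM, a log2 ratio of -0.69 (-0.94 to -0.43). Igf1r in stem-like cells was at 11.1 and 7.39 CPM, a ratio of -0.58 (-1.06 to -0.11), and Met at 19.7 and 13.9 CPM, a ratio of -0.50 (-0.85 to -0.16). Igf2r had a stem-like ratio of -0.25 (-0.51 to 0.01). Cycling cells gave -0.51 for Igf1r, -0.41 for Igf2r, -0.82 for Igfbp4 and -0.70 for Met, and Paneth-like cells -1.0, -0.48, -1.62 and -0.44 in the same order. The Paneth-like interval of Met, -1.08 to 0.22, included 0. Within these classes the values were thus lower in coculture beyond counting error, except for Igf2r in stem-like and Met in Paneth-like cells. Enteroendocrine-like cells, 5 in control and 22 in coculture and too few to compare, held 0 and 82 UMIs of Igfbp4 and 181 and 199 CPM of Igf2r. Regenerative-like cells had the organoids' higher Met levels, 41.9 CPM in 83 control cells and 26.4 CPM in 30 cocultured cells, and held 57 and 0 UMIs of Igfbp4.

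**Figure D3:**
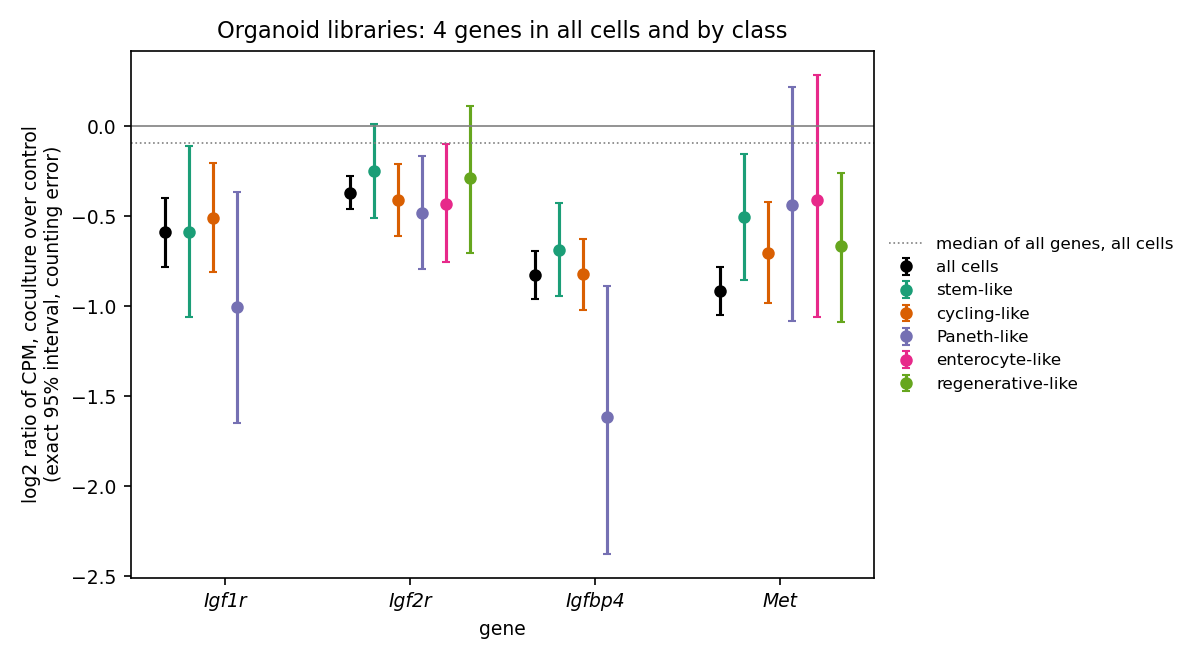
Log2 ratio of cocultured over control organoids for the receptors and Igfbp4, over all kept cells and within classes; points are ratios of CPM and bars exact 95% intervals of counting error, with a line at 0 and a dotted line at the median of all genes. Over all kept cells Igf1r, Igf2r, Igfbp4 and Met lie to the lower side of 0.

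The organoids held none of the ligand transcripts in amount: Igf1 had 0 UMIs in both libraries, where 3 UMIs would be 0.0693 and 0.0309 CPM, and Hgf had 1 and 0. Their fibroblast markers totalled 3 UMIs in each library, with 2 of 10 genes detected. The lymphatic list totalled 84 UMIs in control and 343 in coculture from 3 of its 7 genes, with Pdpn, Ccl21a, Mmrn1 and Reln at 0 in both. The blood endothelial list totalled 2048 UMIs (47.3 CPM) in control, from 10 of 10 genes, and 4643 UMIs (47.9 CPM) in coculture, from 6 of 10. Igfbp5 had 1 and 0 UMIs and Igfbp7 had 4 in each. Igfbp3 had 415 UMIs in the control and 0 in the coculture library, and 1 control cell held 371 of the 415 UMIs (89.4%). That cell had 35886 UMIs in all and carried 97 UMIs of blood endothelial, 81 of regenerative epithelium, 38 of tuft, 3 of lymphatic and 0 of fibroblast markers. Its leading genes included Vim, Sparc, Ramp2, Timp3 and Ly6c1. The remaining 44 UMIs lay in 16 cells, with at most 20 in any of them, and without that cell no member lay past 2-fold.

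In the Visium sections each value is a sum over spots, small regions that hold several cells, and there fewer cells of a type and less RNA per cell cannot be told apart. Igf1 had 16.8 and 15.8 CPM in the small intestinal sections, against 8.73 and 9.06 CPM in the large intestinal ones. Igf1r was at 25.4 and 29.3 CPM against 14.7 and 13.9 CPM. Igf1 and Igf1r, a ligand and its receptor, were therefore both higher in the small intestine, by mean log2 ratios of 0.87 and 0.93. Muscle marker transcripts moved the same way, with summed levels of 6134 and 8196 CPM in small intestine against 1300.2 and 1289 CPM in large intestine, and their part in these differences was not tested. Igfbp5 was at 48.5 and 43.9 against 33.2 and 33.9 CPM, and Met at 39.9 and 45.9 against 36.2 and 35.1 CPM. Igfbp3 went the other way, at 25.9 and 28.0 against 38.9 and 37.9 CPM, as did Igfbp7 at 121 and 157 against 194 and 183 CPM. Igfbp4 was at 73.9 and 73.5 against 81.8 and 81.1 CPM. Igf2r was at 54.0 CPM in the second small intestinal section and at 56.8 and 53.0 CPM in the large intestinal ones, and its ranges overlapped. The sections of the tissues did not overlap for 7 of 8 members, against 87.4% of 12209 genes, and 0 of 8 lay past 2-fold, against 19.8%. For Hgf only counts are given: 17 and 24 UMIs in the small intestinal sections, 44 and 25 in the others. Higher Igfbp5 in small intestinal sections stood beside lower Igfbp5 in small intestinal lymphatic endothelial-like cells.

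**Figure D4:**
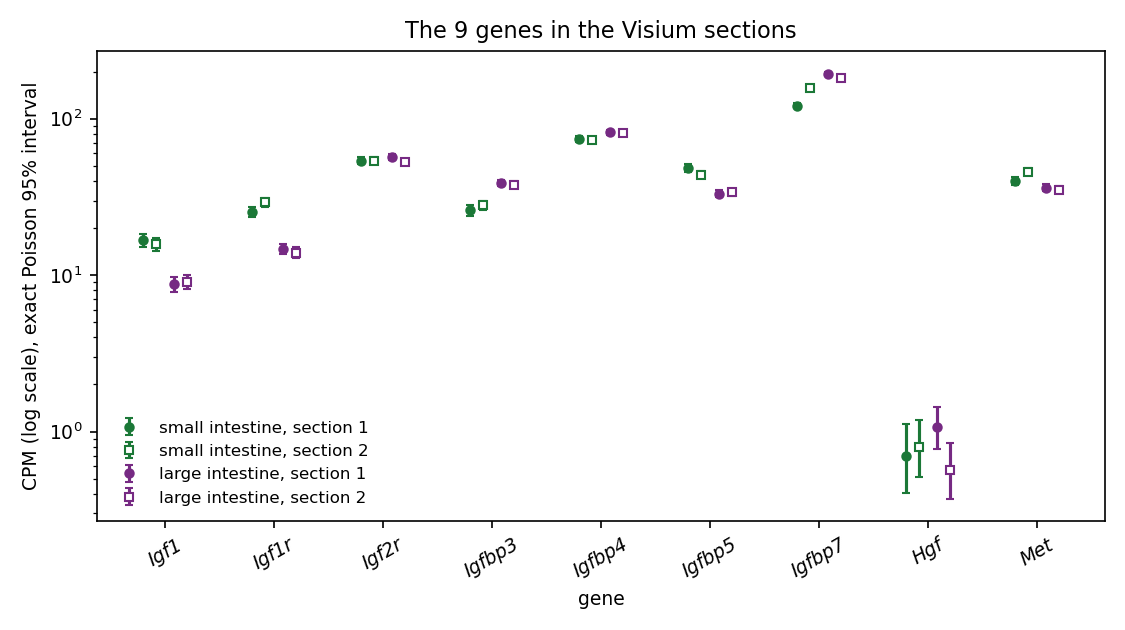
Levels of the 9 genes in the 4 Visium sections, in CPM on a log axis with exact 95% intervals of counting error, 2 technical duplicate sections per tissue. The small intestinal sections lie above the large intestinal ones for Igf1, Igf1r, Igfbp5 and Met and below them for Igfbp3, Igfbp4 and Igfbp7.

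Within each section the 10% of spots with the highest share of UMIs from a marker list were compared with the other spots of that section. Spots rich in muscle markers were 2-fold higher in both sections for 5 of 8 members in the small intestine, against 15.8% of genes, and for 5 of 8 in the large intestine, against 12.4%. They were Igf1, Igf1r, Igfbp4, Igfbp5 and Igfbp7 in both tissues. Igf1r was at 94.2 in muscle-rich against 18.5 CPM in other spots and at 89.2 against 21.7 CPM in the small intestinal sections, and at 56.5 against 12.8 and 58.0 against 11.7 CPM in the large intestinal ones. Igf1 was at 36.0 against 14.8 and 35.3 against 13.3 CPM, and at 23.5 against 8.06 and 22.1 against 8.41 CPM in the same order. Ligand and receptor transcripts were thus both higher in muscle-rich spots of all 4 sections. Igfbp7 had log2 ratios of 2.31 and 2.47 in the small and 1.53 and 1.59 in the large intestine. Met was lower in muscle-rich spots of all 4 sections, at 21.4 against 41.8, 20.3 against 49.2, 20.7 against 36.9 and 24.9 against 35.6 CPM. Igf2r was near 0 on the log2 scale, at -0.19, -0.27, 0.05 and 0.16.

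Spots rich in fibroblast markers were higher for the same 5 members in both tissues, against 15.5% and 12.4% of genes, and they shared between 65 of 210 and 104 of 210 spots with the muscle-rich ones. Igf1 was at 52.8 against 13.8 and 50.0 against 12.1 CPM in the small and at 26.8 against 7.76 and 33.1 against 7.65 CPM in the large intestinal sections. When muscle-rich spots were left out of both sides, the Igf1 log2 ratios were 2.13 and 2.41 in the small and 1.85 and 2.5 in the large intestine, no smaller than with them. Met was lower, at 20.1 against 41.6, 20.3 against 48.6, 15.8 against 37.2 and 23.2 against 35.8 CPM. Hgf was too sparse to compare, with 2, 4, 2 and 3 UMIs in the fibroblast-rich spots.

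Spots rich in lymphatic markers were higher for Igf1, Igfbp4, Igfbp5 and Igfbp7 in the small intestine, against 5.07% of genes, and for these 4 with Igf1r and Igfbp3 in the large intestine, against 11.1%. Igfbp5 was at 185 against 38.4 and 181 against 33.9 CPM in the small and at 163 against 25.0 and 147 against 26.5 CPM in the large intestinal sections. The Igfbp5 log2 ratios were 2.26 and 2.42 in the small and 2.71 and 2.48 in the large intestine, and their difference was not tested. Between 24 and 68 of these spots in a section were also muscle-rich, and between 63 and 102 were also fibroblast-rich, a type of spot in which Igfbp5 had log2 ratios of 2.26 to 3.17.

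Spots rich in absorptive surface markers had less Igf1, Igf1r, Igfbp4, Igfbp5 and Igfbp7 in the small intestine, 5 of 8 members at least 2-fold lower against 29.7% of genes. In the large intestine 4 of 8 were lower, against 26.1%. Of these, Igf1r was no longer 2-fold lower in both sections without muscle-rich spots (log2 ratios of -1.45 and -0.98). Igf1r was at 5.60 against 28.4 and 5.22 against 33.0 CPM in the small and at 5.01 against 15.8 and 6.28 against 14.8 CPM in the large intestinal sections. Met in these spots had log2 ratios of 0.18 (-0.09 to 0.44) and 0.34 in the small and 0.60 and 0.65 in the large intestine. The first did not exceed counting error and none reached 2-fold. Met and Igf1r thus stood in opposite order between the muscle-rich and the absorptive surface-rich spots, except for Met in that first section.

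Crypt-rich spots of the small intestine were 2-fold higher for 1 of 8 members, Igfbp5, against 9.5% of genes, and those of the large intestine for 0 of 8, against 5.5%. Igfbp5 was at 109 against 43.2 and 128 against 38.5 CPM in the small intestinal sections, and its large intestinal log2 ratios were 0.54 and 0.32. In spots rich in Paneth cell markers, small intestine only, Igfbp5 was higher still, at 158 against 37.2 and 190 against 31.8 CPM, log2 ratios of 2.09 (1.90 to 2.27) and 2.57 (2.40 to 2.74). With all spots it was 1 of 8 members past 2-fold there, against 4.23% of genes. Without muscle-rich spots its ratios were 2.36 and 2.93, and Igfbp4 was past 2-fold too, at 1.27 and 1.28. The crypt-rich and Paneth-rich spots shared 91 of 210 and 139 of 258 spots. Of the Paneth-rich spots, 52 and 74 were also lymphatic-rich and 45 and 48 also fibroblast-rich, types of spot in which Igfbp5 was high. In the single-cell library Paneth-like cells held 7 UMIs of Igfbp5 and stem-like cells 0. Igf1r in crypt-rich spots had log2 ratios of 0.49 and 0.33 in the small and 1.08 and 0.97 in the large intestine.

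Spots rich in enteric neuron markers were higher for Igf1, Igf1r, Igfbp4 and Igfbp7 in the small intestine, 4 of 8 against 15.1% of genes, and for Igf1r, Igfbp4, Igfbp5 and Igfbp7 in the large intestine, 4 of 8 against 10.3%. Igf1r had 69.9 against 21.4 and 94.4 against 23.4 CPM there in the small and 34.7 against 13.6 and 39.4 against 12.3 CPM in the large intestinal sections. Of these spots, between 51 and 95 in a section were also muscle-rich.

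Igfbp3 had a separate spatial pattern. Plasma cell-rich spots of the small intestine had it at 80.1 against 20.5 and 82.5 against 20.3 CPM, 1 of 8 members past 2-fold there, against 2.01% of genes. Without muscle-rich spots Igf1 was past 2-fold too, at 1.35 and 1.05. In the large intestine 0 of 8 were past 2-fold, against 0.867%, with Igfbp3 ratios of 1.17 and 0.92. Macrophage-rich spots of the small intestine had Igfbp3 at 77.1 against 21.8 and 97.9 against 21.8 CPM, beside Igf1, Igfbp4, Igfbp5 and Igfbp7, 5 of 8 against 7.23% of genes. Large intestinal macrophage-rich spots were higher for Igf1, Igfbp4, Igfbp5 and Igfbp7, 4 of 8 against 8.6%, with Igfbp3 at 60.8 against 37.2 and 67.3 against 35.7 CPM. In the small intestine the plasma cell-rich and macrophage-rich spots shared 78 of 210 and 67 of 258 spots. Plasma-like and macrophage or monocyte-like cells of the small intestinal single-cell library held 3 and 2 UMIs of Igfbp3, a level far below that of the endothelial-like classes.

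**Figure D5:**
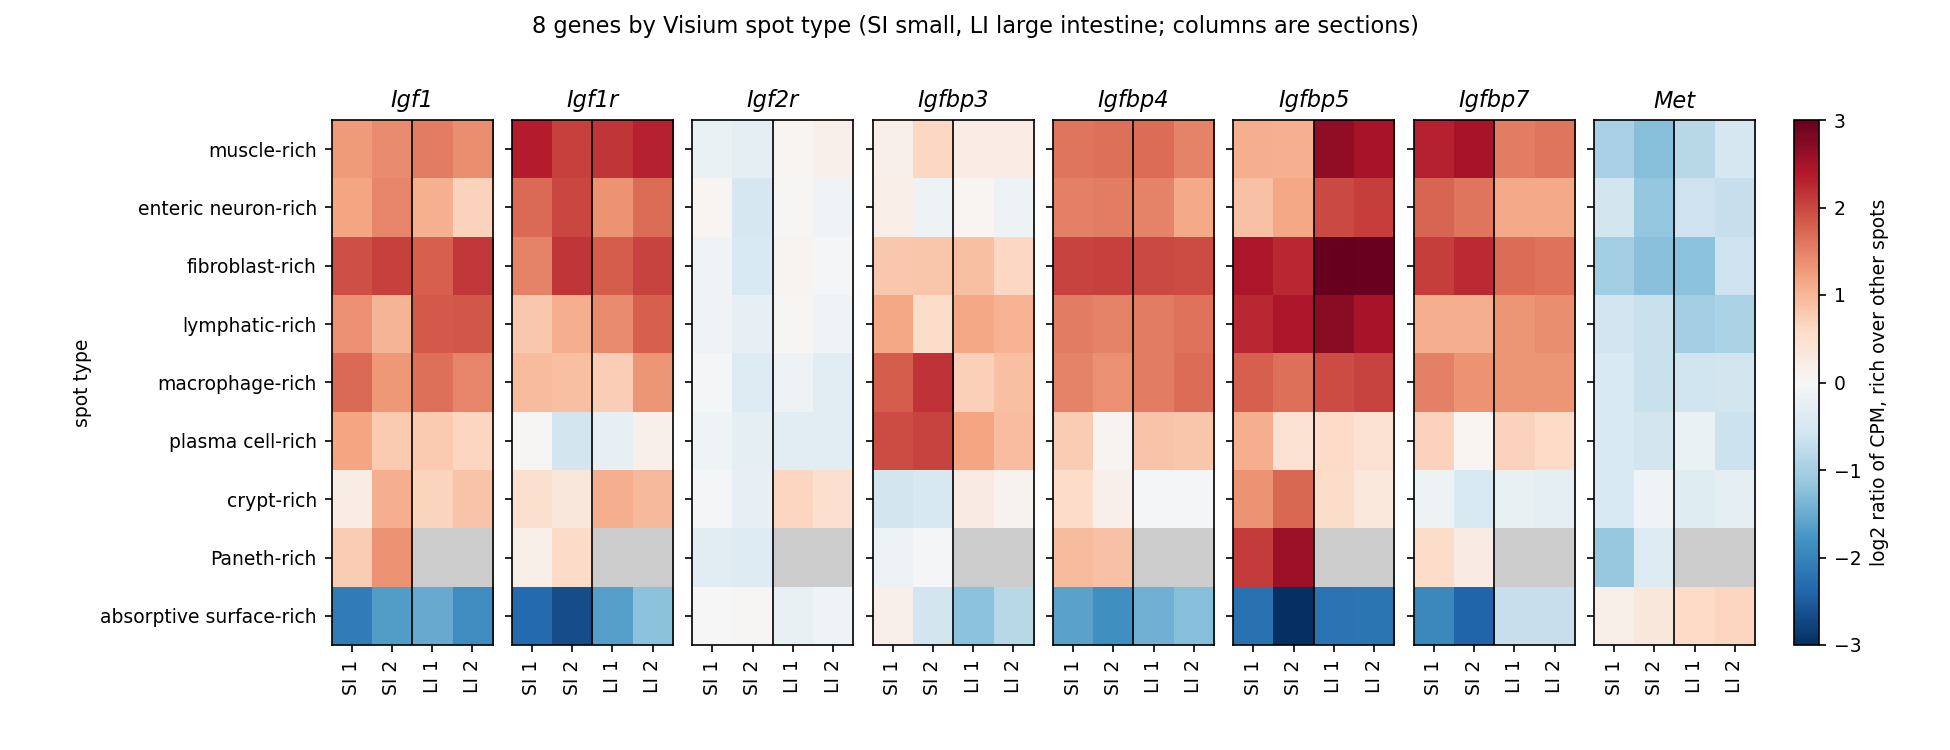
Log2 ratio of marker-rich over other spots for 8 of the 9 genes (Hgf had too few UMIs) in each of the 4 Visium sections; each panel is a gene, its columns are sections (SI small, LI large intestine), the marker lists that chose the spots run down the side, colour runs from blue (lower) to red (higher), and grey cells mark the Paneth list in the large intestine, which was not used. Igf1, Igf1r, Igfbp4, Igfbp5 and Igfbp7 are higher in muscle-rich and fibroblast-rich spots, and Met is lower there.

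Another 23 genes of these pathways, carriers, proteases, adaptors and HGF activators, were counted in the same comparisons. In the organoids 11 of 23 had at least 100 UMIs, 0 lay past 2-fold, and their median log2 ratio was -0.22. In lymphatic endothelial-like cells 2 of 23 had enough UMIs, 0 lay past 2-fold, and the median of these 2 was -0.21. Among those under the minimum, Pappa (89 and 5 UMIs) had a log2 ratio of small over large intestine of 3.02 (1.75 to 4.68). Igfbp6 (13 and 31 UMIs) had -2.39 (-3.44 to -1.41). Both were picked after their values were seen. Between the nearest Visium sections of the tissues 4 of the 17 with enough UMIs lay past 2-fold, a share near the 19.8% of all genes. Hgfac, which encodes a protease that activates HGF, had 25.7 and 22.3 CPM in small intestinal sections against 102 and 100.2 CPM in the large intestinal ones. Htra1, a protease that cleaves binding proteins, was at 20.0 and 23.1 against 60.5 and 57.3 CPM. Of the insulin receptor substrates, which relay receptor signals, Irs1 was lower in the small intestine, at 3.20 and 2.99 against 6.76 and 7.12 CPM, and Irs2 was higher, at 36.0 and 46.3 against 17.8 and 14.5 CPM. By cell class, Igfbp6 was highest in fibroblast-like cells, at 1112 CPM (267 UMIs) in the small and 1190 CPM (3298 UMIs) in the large intestine. Pappa, the protease that cleaves IGFBP4, led among small intestinal classes in the lymphatic endothelial-like one (71.9 CPM, 89 UMIs), as Igfbp4 did. In the large intestine both Pappa (38.6 CPM, 107 UMIs) and Igfbp4 were highest in fibroblast-like cells among the classes of at least 20 cells, while 14 glia-like cells held 16 Pappa UMIs. Hgfac was highest in goblet-like cells, at 206 CPM (1079 UMIs) in the small and 307 CPM (4281 UMIs) in the large intestine. Spint2, an inhibitor of proteases that activate HGF, had 1156 CPM in small intestinal goblet-like and 927 CPM in large intestinal colonocyte-like cells, its highest classes. Igf2 had at most 16 UMIs in any class.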

How the data were processed

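Gene by barcode matrices of UMI counts were deposited for 8 libraries, written by Cell Ranger 6.0.1 for single cells and Space Ranger 1.2.1 for Visium, per the file headers. The submitters' processing notes name the build mm10, and the annotation release and the use of strand in counting are not given in the sources used here. The counts were deposited without normalization. Cells with fewer than 500 genes or over 20% mitochondrial UMIs were removed, as were spots under 500 UMIs, and Scrublet scores removed 0.8% of cells per 1000 cells as doublets. Cells were clustered (Leiden, resolution 1, 2000 variable genes, 30 components, 15 neighbours) with scanpy 1.11.5, scikit-learn 1.9.0 and python-igraph 0.11.9 under Python 3.11.15, leaving out the 9 genes, 23 pathway genes, and mitochondrial, ribosomal, sex-linked and reporter genes. Of 24 marker lists, those qualified with at least 3 markers each in 10% of a cluster's cells and 1 log2 unit above other cells. The qualifying list with the highest mean log2 ratio named the cluster. A cluster stayed unnamed where no list qualified, or where its 10 leading genes held more markers of another class or none of its own. Classes under 20 cells were not compared. Levels are summed counts per 1000000 UMIs, with exact Poisson intervals (scipy 1.17.1, numpy 2.4.6), and ratios have the exact interval for 2 such counts. Shares of cells were taken after thinning each cell to a fixed depth, with exact Clopper-Pearson intervals. A gene entered the organoid and between-tissue class comparisons where the higher group held 100 UMIs or more. The highest-class counts needed 100 UMIs over the named classes. The comparison between sections needed 100 in every section of 1 tissue, and spot types 100 in each section of the tissue. Called means past 2-fold, and a count under 3 was set to 3. Depth per deposited library ranged from 24356162 to 142501907 UMIs. Spots were grouped by the top 10% share of 9 marker lists, and in the large intestine the Paneth list was not used because its UMIs were too few. Scripts were tested on simulated counts, and figures used matplotlib 3.10.9. Other filters, doublets kept, other resolutions, depths and spot limits, and each section left out were tried. Leaving out muscle-rich spots was chosen after seeing the data. The members, the marker lists and the pathway list were chosen with earlier results of these data known. All 9 members are named. Pathway genes past 2-fold (between sections, the nearest ones) or among the 3 highest in a class could be named, and not all were. For each member the 3 genes most like it over class levels are named. Clusters and single cells described within a class were chosen after their values were seen. Of 32285 gene identifiers, 32158 were found in the reference table.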

Additional observations from a re-analysis of the deposited data

Results flagged for a closer look

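In 5 cases every small intestinal section moved one way and every large intestinal section the opposite way between spot types, and none of these differences was tested. When muscle-rich spots were left out, 2 of the 4 cases outside those spots no longer did so. The cases came from 8 members screened over all spot lists but the Paneth list, with no limit on size. The share over all genes was not computed, so the count of 5 cannot be judged. Igf2r made up 3 of the 5 cases. In crypt-rich against other spots Igf2r had log2 ratios of -0.06 and -0.26 in the small and 0.64 and 0.50 in the large intestine, a difference of the means of -0.73 (small minus large). Both small intestinal ratios lay within counting error (-0.37 to 0.23 and -0.59 to 0.06). The levels were 51.8 against 54.1 and 45.7 against 54.6 CPM in the small and 83.9 against 53.7 and 72.6 against 51.2 CPM in the large intestinal sections. In muscle-rich spots the Igf2r difference was -0.34 and in absorptive surface-rich spots 0.17, both from ratios under 0.3 in size in every section. Of the muscle-rich ratios, 3 of 4 lay within counting error. The absorptive surface-rich ratios of the small intestine, 0.01 (-0.23 to 0.24) and 0.03 (-0.18 to 0.23), lay within counting error and were -0.01 in each section without muscle-rich spots, so that all 4 sections were then below 0. Igfbp3 in crypt-rich spots had ratios of -0.54 and -0.48 in the small and 0.24 and 0.10 in the large intestine, a difference of -0.69, the last ratio within counting error (-0.15 to 0.34). Igfbp4 in crypt-rich spots had ratios of 0.55 and 0.16 in the small and -0.03 in each large intestinal section, a difference of 0.38. The second small intestinal ratio (-0.09 to 0.40) and both large intestinal ratios (-0.20 to 0.13 and -0.20 to 0.14) lay within counting error. Without muscle-rich spots the Igfbp4 ratios were 0.84, 0.50, 0.08 and 0.08, above 0 in all 4 sections. The stem-like cells of the small intestine also had the higher Igfbp4 level, 108 against 12.0 CPM.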

How the results depend on the processing

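With called doublets kept, and with clustering at resolution 0.5, 1 of 8 members in place of 0 had its highest small intestinal class at least 2-fold above the next, Igf1 in both cases. With doublets kept, 5 members in place of 2 had the same highest class in both tissue libraries. The organoid count of members past 2-fold was 0 in place of 1 with the stricter cell filter and 0 when the cell holding most UMIs of a gene was left out, since Igfbp3 then had too few UMIs. The large intestinal highest-class count ranged from 4 to 6. Leaving out each section in turn gave 0 to 0 members past 2-fold between sections, 5 to 6 in small intestinal muscle-rich spots and 5 to 5 in large intestinal ones. No value past 2-fold changed sign under the alternatives run. Leaving out muscle-rich spots turned the sign of 3 values under 2-fold in both sections of a tissue: Igfbp7 in small intestinal crypt-rich spots (-0.16 and -0.46, then 0.33 and 0.17), Igfbp4 in large intestinal crypt-rich spots (-0.03 in each, then 0.08 in each) and Igf2r in small intestinal absorptive surface-rich spots (0.01 and 0.03, then -0.01 in each). It also brought past 2-fold in both sections Igf1r in small intestinal lymphatic-rich (1.09 and 1.26) and macrophage-rich (1.23 and 1.16) and large intestinal crypt-rich spots (1.31 and 1.25), Igfbp5 in small intestinal enteric neuron-rich spots (1.24 and 1.36) and, as lower, Met in large intestinal lymphatic-rich spots (-1.14 and -1.04). It took out Igf1r in large intestinal absorptive surface-rich (-1.45 and -0.98), Igfbp7 in large intestinal enteric neuron-rich (0.96 and 0.89) and Met in small intestinal fibroblast-rich spots (-0.99 and -1.32). Of 582 recomputed single-gene values, 421 stayed within their tolerance and 161 did not. The tolerance was the counting interval for single-cell values and a standard deviation taken from the duplicate sections for Visium values. A highest-class ratio also counted as moved where the highest class changed. No paired analysis was possible because the results come from no test, and the replicate numbers name technical duplicate sections. With 1 library per group, counts limit precision within a library and say nothing of the spread between animals.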

Other observations

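Hgf was also present outside the mesenchyme of the large intestine. A total of 96 of the 294 Hgf UMIs lay in the 2 clusters with Trf, Fut9, Gsta3 and Defb45 among their leading genes: 50 UMIs (7.3 CPM, 5.42 to 9.62) in an unnamed cluster of 302 cells and 46 UMIs (5.89 CPM, 4.31 to 7.86) in a cycling cluster of 197 cells. The other large cycling cluster, 410 cells led by Hist1h1b and Top2a, had 6 UMIs (0.398 CPM). These clusters were singled out after their values were seen.

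Over 29 class levels of the tissue libraries, the genes whose log2(CPM + 10) followed each member most closely were named among 14068 genes. These are Pearson correlations over classes that share 2 libraries, given as descriptions. Igf1 was followed by Stbd1 (0.96), Rem1 (0.96) and P2ry14 (0.95), and Hgf by Fgf10 (0.94), Cxcl14 (0.94) and Adamdec1 (0.94). Igfbp7 was followed by Dlc1 (0.98), Adamts1 (0.97) and Cxcl12 (0.97), and Igfbp5 by Col18a1 (0.96), Abi3bp (0.95) and Serpine2 (0.95). For Igfbp3 the genes were Ramp2 (0.95), Osmr (0.93) and Cdr2l (0.93), and for Igfbp4 Sntb2 (0.93), Il6st (0.92) and Cntln (0.91). The receptors had looser partners: Igf1r with Cc2d2a (0.89), Tcaf1 (0.88) and Nfix (0.88), and Met with Macrod1 (0.80), Thap4 (0.76) and Pdgfa (0.75). Igf2r was followed by Airn (0.86), March9 (0.75) and Gnptg (0.74). Airn is antisense to Igf2r, and without the use of strand known their reads cannot be told apart, so the Igf2r and Airn levels are uncertain.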
